A study of Mus musculus with 20 samples.

Results

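Klk1, Grem1, Il17d, Cntfr, Fat3, Tnnt2, Psd and Fam171a2 are 8 protein-coding mouse genes grouped as non-immune, although Il17d encodes a cytokine. They were chosen by measured values, from a table of 20960 genes in mouse ovary, for large falls of their RNA in the ptLNPIFN-Y or the LNPIFN-Y group relative to the Model group. As a set they are not the genes that fell furthest. Ordered by log2 fold change among the genes called lower, the 6 of them called in ptLNPIFN-Y ranked 10 to 38 of 149. The 6 called in LNPIFN-Y ranked 1 (Grem1) to 31 of 89. All 8 were found by symbol, and all 8 passed the filter on low counts, as did 15723 genes in all. Their differences from Model are therefore a description of how they were picked and carry no test here. The data are polyadenylated RNA libraries from 20 ovary samples, 5 in each of 4 labelled groups. The ptLNPIFN-Y group had ovarian cancer and received the LNPIFN-Y agent with the prefix pt, and the LNPIFN-Y group had ovarian cancer and received the agent without it. The Model group had ovarian cancer and no listed agent, and the Control group had neither. Per the series text the animals were C57BL/6 mice, the tumour grew from ID8Luci cells placed in the ovarian bursa, pt stands for targeting by a peptide, and the lipid nanoparticles carry mRNA for interferon-γ. The ID8 line derives from mouse ovarian surface epithelium. That text describes further treatment arms that have no label here, and an empty particle is not among the labelled groups, so effects of the particle and of its mRNA cannot be told apart. Nothing in the labels tells whether each library is an animal of its own, so every test measures the spread between these libraries, which may be technical.

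The 8 genes belong to separate systems. Klk1 encodes tissue kallikrein, a secreted serine protease that releases kinin peptides from kininogen. Grem1 encodes gremlin 1, a secreted antagonist that binds bone morphogenetic proteins (BMPs), and in the ovary BMP ligands such as BMP15 act between oocyte and granulosa cells. Il17d encodes a secreted member of the interleukin-17 family, and Cntfr the receptor subunit that binds ciliary neurotrophic factor and signals with LIFR and gp130 through STAT3. Fat3 is a giant protocadherin of the cell surface, Tnnt2 the troponin T isoform of cardiac muscle, and Psd an exchange factor that activates the small GTPase ARF6. Fam171a2 encodes a membrane protein of the FAM171 family.

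No pair of the 8 genes shares a chromosome. In the deposited table, on build GRCm38.p6, Klk1 (Entrez ID 16612) lies at chr7:44225360-44229622, Grem1 (23892) at chr2:113748675-113758648, Il17d (239114) at chr14:57524829-57543166 and Cntfr (12804) at chr4:41657498-41697091. Fat3 (270120) lies at chr9:15910189-16502681, Tnnt2 (21956) at chr1:135836315-135852268, Psd (73728) at chr19:46312085-46328127 and Fam171a2 (217219) at chr11:102436981-102447677. Psd overlaps the neighbouring gene Nfkb2 by 316 bases. The strand setting of the counting is not given in the sources used here, so reads from that stretch cannot be assigned to either gene with certainty. Of all 100-base windows in the annotated transcripts of Klk1, 5.09% also occur in Klk1b11 or Klk1b5, close relatives of Klk1, and this share was 2.42% for Psd, 0.198% for Grem1 and 0% for the other 5 genes. Values of Klk1 carry that uncertainty.

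Promoter windows of the 8 genes were searched for short motifs known from interferon-responsive genes. RefSeq windows of build GRCm38.p6, running from 250 bases before to 50 bases after the annotated start, were on file for 7 of the 8 genes. For Psd, Tnnt2 and Cntfr the table lists other starts, 7 further windows in all, and the window nearest to the gene's deposited start was used. The starts used for Psd, Cntfr, Fat3 and Tnnt2 lie inside the deposited bounds of those genes. Both strands were searched for the gamma-activated site TTCNNNGAA, for the core of the interferon-stimulated response element (GAAA, any 2 bases, GAAA) and for the TATA box TATAAA, where the letters of the first and second motif can overlap. The gamma-activated site letters were present in the windows of Psd and Il17d, 2 of 7, and in 8.30% of all 32851 windows of the same length. The other letters were in none of the 7 windows, against 3.44% of all windows for the response element core and 13.6% for the TATA box. The 2 windows with a match are shown first, with the match in capitals. Those of Grem1 and Klk1 follow as the genes with the largest differences in the LNPIFN-Y group, both without a match.
Psd, chr19:46327107-46327406, minus strand: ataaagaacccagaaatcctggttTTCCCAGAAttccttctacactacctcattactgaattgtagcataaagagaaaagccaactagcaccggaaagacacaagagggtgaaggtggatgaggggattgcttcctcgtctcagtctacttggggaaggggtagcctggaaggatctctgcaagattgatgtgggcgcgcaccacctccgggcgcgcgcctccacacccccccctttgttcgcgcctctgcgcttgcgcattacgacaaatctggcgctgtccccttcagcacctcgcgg
Il17d, chr14:57524579-57524878, plus strand: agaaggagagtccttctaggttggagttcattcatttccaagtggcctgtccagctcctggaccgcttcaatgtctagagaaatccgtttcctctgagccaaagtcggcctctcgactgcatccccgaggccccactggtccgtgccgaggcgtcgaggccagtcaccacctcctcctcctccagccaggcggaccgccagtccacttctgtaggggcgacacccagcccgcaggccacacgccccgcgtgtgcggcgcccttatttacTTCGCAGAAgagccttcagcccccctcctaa
Grem1, chr2:113758599-113758898, minus strand: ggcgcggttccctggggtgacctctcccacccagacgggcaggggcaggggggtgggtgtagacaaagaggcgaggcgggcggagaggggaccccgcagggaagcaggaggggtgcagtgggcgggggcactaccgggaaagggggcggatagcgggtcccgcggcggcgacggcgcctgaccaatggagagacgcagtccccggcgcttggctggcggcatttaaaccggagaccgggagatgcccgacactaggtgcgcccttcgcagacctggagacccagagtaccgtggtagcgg
Klk1, chr7:44225110-44225409, plus strand: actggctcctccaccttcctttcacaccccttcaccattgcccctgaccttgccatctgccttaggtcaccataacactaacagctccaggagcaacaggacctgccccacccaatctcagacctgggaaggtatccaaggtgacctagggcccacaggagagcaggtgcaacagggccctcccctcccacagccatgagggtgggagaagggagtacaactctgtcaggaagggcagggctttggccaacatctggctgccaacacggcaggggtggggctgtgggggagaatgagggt

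None of the 7 further windows of Psd, Tnnt2 and Cntfr holds any of the 3 motifs. The match in Psd starts 226 bases before the RefSeq start of its window and the match in Il17d 19 bases after it. The windows also differed in CpG content. The window of Klk1 holds 1 CpG, and 5.43% of all windows hold fewer. Those of Grem1 and Fat3 hold 28 and 35, and 85.8% and 93.0% of all windows hold fewer. None of the 3 motifs was present in all 7 windows.

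Klk1 RNA was low in both particle groups. In CPM, the share of a library's counts scaled to a fixed total and corrected by the trimmed mean of M-values (TMM), libraries 1 to 5 held 1.60, 1.19, 2.23, 0.379 and 1.41 in ptLNPIFN-Y, 0.713, 0.873, 1.37, 1.58 and 0.198 in LNPIFN-Y, 2.56, 13.02, 1.70, 3.76 and 5.32 in Model, and 5.28, 7.05, 7.20, 5.81 and 3.56 in Control. All LNPIFN-Y libraries lay below all Model libraries, whereas the highest ptLNPIFN-Y library lay above the lowest Model library, and Model library 2 stood far above the rest of its group. The log2 fold change against Model was -1.95 ± 0.56 in ptLNPIFN-Y and -2.46 ± 0.57 in LNPIFN-Y (SE of the fit, n = 5 each). Without Model library 2 these became -1.29 and -1.80. In bulk tissue, fewer cells that make a transcript and less of it per cell cannot be told apart, here or for any gene below.

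**Figure D1:**
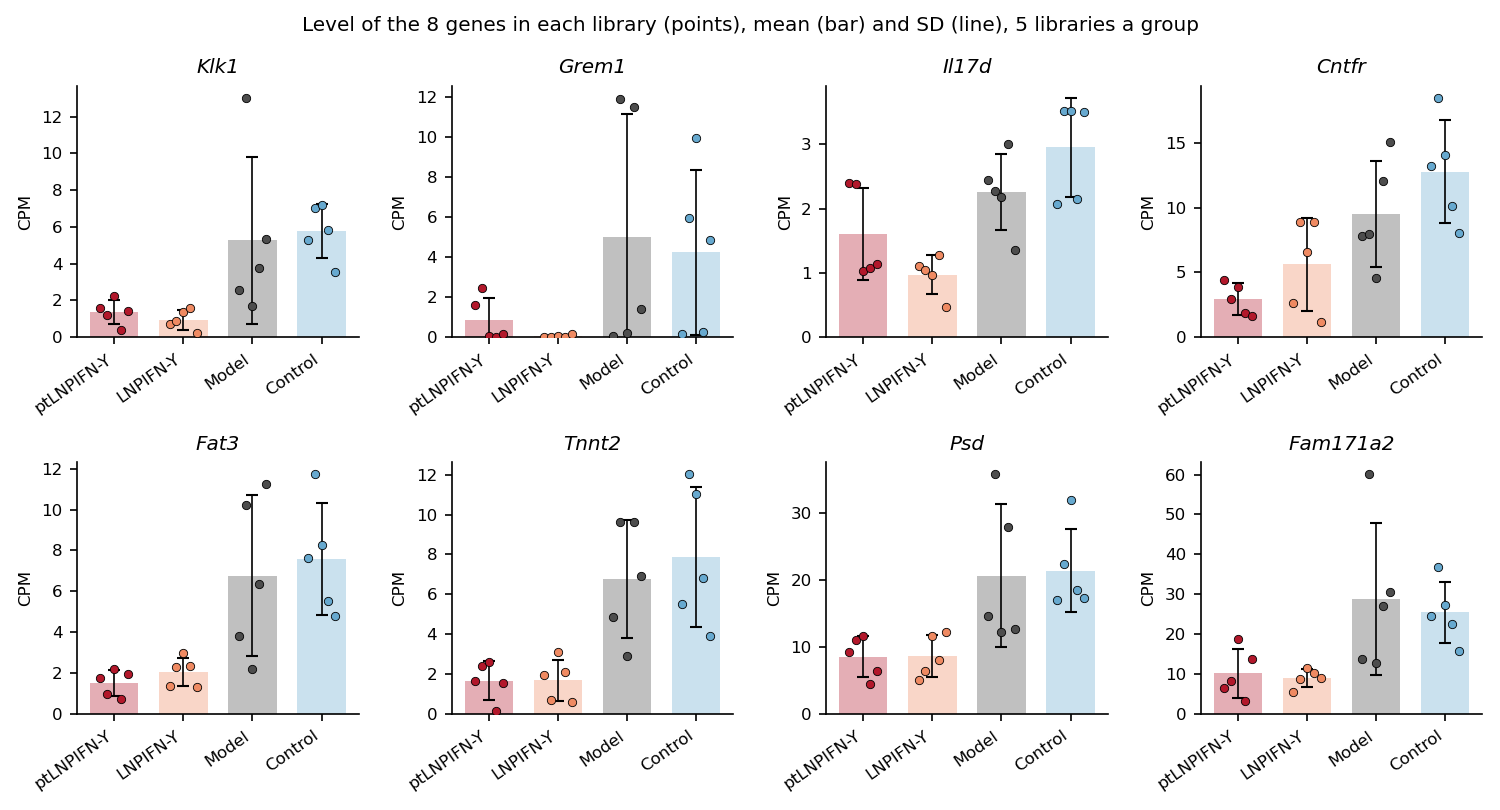
CPM (vertical axis, each panel with its own scale from 0) of each of the 8 genes in the groups ptLNPIFN-Y, LNPIFN-Y, Model and Control; points are libraries, bars means and lines SDs of 5 libraries. The means of both particle groups lie below those of Model and Control in every panel, and the libraries of Cntfr in LNPIFN-Y and of Il17d in ptLNPIFN-Y spread into the range of Model.

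Grem1 was close to undetected in the LNPIFN-Y group. Counts in libraries 1 to 5 were 26, 39, 1, 0 and 2 in ptLNPIFN-Y, 0, 0, 1, 0 and 2 in LNPIFN-Y, 1, 205, 3, 215 and 25 in Model, and 3, 98, 181, 5 and 85 in Control. Every group other than LNPIFN-Y mixed libraries with next to no reads and libraries with more. Both particle groups overlapped Model, while the LNPIFN-Y libraries, with at most 2 counts, lay wholly below those of Control, with at least 3. Over summed counts, 3 in LNPIFN-Y against 449 in Model, the ratio per unit of library size was 0.00716 with an exact 95% counting interval of 0.00147 to 0.0211, which covers counting error only and not the spread between libraries. The fitted log2 fold change against Model was -2.55 ± 1.36 in ptLNPIFN-Y and -6.82 ± 1.82 in LNPIFN-Y, and the second depends on how the fit treats counts near 0. Leaving out ptLNPIFN-Y library 2 moved the first to -3.46, and leaving out Model library 2 moved it to -1.95.

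Il17d fell in the LNPIFN-Y group and was mixed in the ptLNPIFN-Y group. Libraries 1 to 5 held 2.40, 2.38, 1.02, 1.07 and 1.14 CPM in ptLNPIFN-Y, 1.10, 1.05, 0.968, 1.28 and 0.463 in LNPIFN-Y, 2.45, 2.27, 2.19, 3.004 and 1.36 in Model, and 2.07, 3.52, 3.52, 2.15 and 3.50 in Control. The highest LNPIFN-Y library was below the lowest Model library, while ptLNPIFN-Y libraries 1 and 2 were above the median of Model and libraries 3 to 5 below all of it. The log2 fold change against Model was -0.49 ± 0.32 in ptLNPIFN-Y and -1.21 ± 0.33 in LNPIFN-Y.

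Cntfr showed the other order, with the ptLNPIFN-Y group lower. Its libraries 1 to 5 held 4.43, 2.95, 3.86, 1.83 and 1.61 CPM in ptLNPIFN-Y, 2.66, 8.91, 6.603, 8.94 and 1.12 in LNPIFN-Y, 7.85, 7.96, 4.55, 12.1 and 15.1 in Model, and 13.2, 18.5, 14.1, 10.2 and 8.04 in Control. All ptLNPIFN-Y libraries lay below all Model libraries. LNPIFN-Y libraries 1 and 5 were within or below the range of ptLNPIFN-Y, and libraries 2, 3 and 4 were within the range of Model. The log2 fold change against Model was -1.69 ± 0.48 in ptLNPIFN-Y and -0.75 ± 0.47 in LNPIFN-Y.

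Fat3 and Tnnt2 were low in both particle groups to a like degree. Fat3 held 1.72, 0.940, 2.17, 0.696 and 1.94 CPM in ptLNPIFN-Y, 1.36, 2.27, 2.96, 2.31 and 1.32 in LNPIFN-Y, 3.81, 10.2, 2.19, 6.33 and 11.3 in Model, and 7.63, 11.7, 8.24, 5.54 and 4.76 in Control. Model library 3 was the lowest of its group and only just above the highest ptLNPIFN-Y library. LNPIFN-Y overlapped Model, with its libraries 2, 3 and 4 above Model library 3. The log2 fold change of Fat3 against Model was -2.17 ± 0.44 in ptLNPIFN-Y and -1.72 ± 0.43 in LNPIFN-Y. Tnnt2 held 1.66, 2.38, 2.59, 0.126 and 1.54 CPM in ptLNPIFN-Y, 1.95, 0.699, 3.07, 2.07 and 0.595 in LNPIFN-Y, 4.83, 9.65, 2.91, 9.66 and 6.90 in Model, and 5.50, 12.03, 11.04, 6.83 and 3.90 in Control. For Tnnt2 too the ptLNPIFN-Y libraries were all below Model, and LNPIFN-Y library 3 reached into the range of Model. Its log2 fold change against Model was -2.03 ± 0.59 in ptLNPIFN-Y and -2.01 ± 0.59 in LNPIFN-Y.

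Psd and Fam171a2 were lower in both particle groups. Psd held 9.16, 11.03, 11.6, 4.36 and 6.37 CPM in ptLNPIFN-Y, 4.99, 6.35, 11.6, 8.03 and 12.1 in LNPIFN-Y, 14.6, 35.7, 12.1, 27.9 and 12.6 in Model, and 16.9, 22.3, 31.8, 18.4 and 17.2 in Control. Neither particle group overlapped Model, but the margin in LNPIFN-Y was narrow, with a highest library of 12.10 CPM against a lowest Model library of 12.14 CPM. The log2 fold change of Psd against Model was -1.27 ± 0.35 in ptLNPIFN-Y and -1.26 ± 0.35 in LNPIFN-Y. Fam171a2 held 6.46, 8.15, 18.8, 3.16 and 13.7 CPM in ptLNPIFN-Y, 5.45, 8.56, 11.4, 10.1 and 8.99 in LNPIFN-Y, 13.6, 60.0, 12.6, 26.9 and 30.6 in Model, and 24.5, 36.7, 27.4, 22.5 and 15.8 in Control. All LNPIFN-Y libraries were below Model, whereas ptLNPIFN-Y libraries 3 and 5 were within its lower range. The log2 fold change of Fam171a2 against Model was -1.52 ± 0.45 in ptLNPIFN-Y and -1.69 ± 0.45 in LNPIFN-Y.

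Against Model, 6 of the 8 genes were past an adjusted p of 0.05 in the lower direction in ptLNPIFN-Y (all but Grem1 and Il17d), where 0.948% of all tested genes were, and 6 in LNPIFN-Y (all but Cntfr and Tnnt2), where 0.566% were. In 4 genes the ptLNPIFN-Y libraries lay wholly below Model, against 1.23% of all genes, and in 4 genes the LNPIFN-Y libraries did, against 0.884%. These comparisons chose the genes, so nothing is read from the counts. The median log2 fold change of the 8 was -1.82 in ptLNPIFN-Y and -1.70 in LNPIFN-Y, beside -0.05 and -0.03 for all genes tested. The counts rested on single libraries: without Model library 2 only Fat3 remained past the threshold in ptLNPIFN-Y and only Klk1 in LNPIFN-Y. Genes outside the choice were taken from those called lower without overlap whose log2 CPM averaged 1 or more. That CPM cut leaves out Grem1 and Il17d. By log2 fold change, Pik3r3 (-1.16), Ggnbp1 (-1.11) and Ece2 (-1.06) stood next below Psd in LNPIFN-Y. Bves (-1.66), Ece2 (-1.38) and Btbd11 (-1.38) stood next below Cntfr in ptLNPIFN-Y, where they fell further than Psd (-1.27). Fcrls, an Fc receptor-like gene, had a log2 fold change of -3.05 in ptLNPIFN-Y and is not among the 8.

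The same genes were also low against Control, the ovaries without tumour. This comparison uses the particle libraries by which the genes were picked, so its adjusted p-values (edgeR quasi-likelihood test, Benjamini-Hochberg over all 15723 genes) are values of the fit and no independent support. In ptLNPIFN-Y 6 of the 8 genes were past the threshold and lower, against 5.39% of all genes, with 5 of the 8 wholly below Control, against 5.65%. In LNPIFN-Y 7 of the 8 were past it and lower, against 3.28% of all genes, and the same number was wholly below Control, against 6.5%. The lowest adjusted p in ptLNPIFN-Y was that of Fat3, with a log2 fold change of -2.34 (adjusted p = 0.00121), and the lowest in LNPIFN-Y that of Il17d, with -1.59 (adjusted p = 0.00320). Klk1 gave -2.08 (adjusted p = 0.0172) in ptLNPIFN-Y and -2.60 (adjusted p = 0.00519) in LNPIFN-Y. The exceptions were Grem1 (-2.31, adjusted p = 0.222) and Il17d (-0.88, adjusted p = 0.0677) in ptLNPIFN-Y, and Cntfr (-1.18, adjusted p = 0.0938) in LNPIFN-Y. Fam171a2 was past the threshold by little in ptLNPIFN-Y (-1.34, adjusted p = 0.0468) and LNPIFN-Y (-1.51, adjusted p = 0.0323). It was lost in ptLNPIFN-Y without any of Control libraries 1 to 4 or ptLNPIFN-Y libraries 1, 2, 4 and 5 (adjusted p up to 0.115), and in LNPIFN-Y without any of Control libraries 1 to 3 or LNPIFN-Y libraries 1, 2 and 5 (adjusted p up to 0.0848). Without Control library 3 the adjusted p was 0.0504 for Psd in ptLNPIFN-Y, and 0.0611 for Psd and 0.0508 for Grem1 in LNPIFN-Y. Psd was also lost without ptLNPIFN-Y library 5 (adjusted p = 0.0511), and Psd and Grem1 without LNPIFN-Y library 1 (adjusted p = 0.0569 and 0.0575), while Il17d in ptLNPIFN-Y passed without ptLNPIFN-Y library 1 or 2 (adjusted p = 0.0328 and 0.0494).

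**Figure D2:**
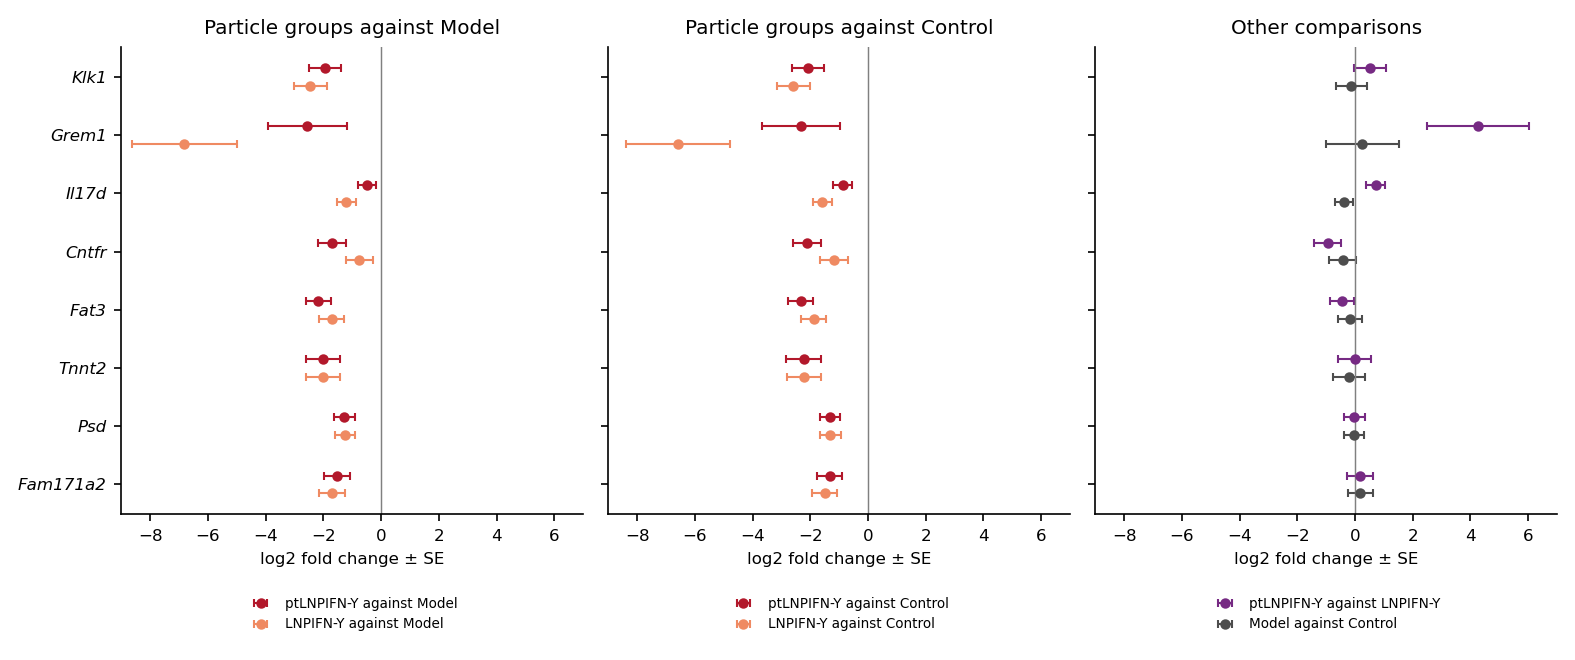
Log2 fold change with its SE (horizontal axis) of the 8 genes (vertical axis) in ptLNPIFN-Y and LNPIFN-Y against Model, the same groups against Control, and ptLNPIFN-Y against LNPIFN-Y beside Model against Control. The values against Model and against Control are all below 0, from -6.82 to -0.49, and the third panel scatters around 0 except for Grem1.

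Model and Control were not distinguished for any of the 8 genes. Model against Control gave log2 fold changes of -0.13 ± 0.53 for Klk1, 0.24 ± 1.27 for Grem1, -0.39 ± 0.32 for Il17d and -0.43 ± 0.46 for Cntfr, and of -0.16 ± 0.42 for Fat3, -0.21 ± 0.56 for Tnnt2, -0.05 ± 0.35 for Psd and 0.18 ± 0.44 for Fam171a2. None of the 8 was past the threshold in edgeR's test (lowest adjusted p = 0.936), none was without overlap, and 0% of all genes were called lower and 0.223% lay wholly below Control. Over all genes 772 had an unadjusted p under 0.05, and DESeq2 called 2 genes lower. Missing the threshold does not show that Model and Control were alike, and the Model libraries are those used to pick the genes.

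The 2 particle groups were not distinguished for any of the 8 genes. In ptLNPIFN-Y against LNPIFN-Y the log2 fold change was 4.27 ± 1.77 for Grem1, 0.72 ± 0.33 for Il17d, 0.52 ± 0.56 for Klk1 and 0.17 ± 0.44 for Fam171a2. It was -0.01 ± 0.58 for Tnnt2, -0.02 ± 0.35 for Psd, -0.45 ± 0.43 for Fat3 and -0.94 ± 0.47 for Cntfr. The adjusted p was 0.9997 for each in edgeR's test, which called no gene in this comparison and found 481 with an unadjusted p under 0.05. DESeq2 called none either. None of the 8 was without overlap, against 0.089% of all genes wholly below LNPIFN-Y. For Grem1 the ratio of summed counts per unit of library size, 68 in ptLNPIFN-Y against 3 in LNPIFN-Y, was 23.3 with an exact 95% counting interval of 7.64 to 116, and ptLNPIFN-Y libraries 1 and 2 held 26 and 39 of the 68 counts. That Grem1, Il17d, Cntfr and Tnnt2 were each past the threshold against Model in 1 particle group only is therefore not shown to be a difference between the groups.

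The ovary samples differed in composition. Amh and Inha, made by granulosa cells, were detected in all 20 libraries. Inha was as low as 110 CPM in ptLNPIFN-Y and 22.9 in LNPIFN-Y, against at least 370 in Model and 874 in Control. The oocyte gene Zp3 had no count in ptLNPIFN-Y library 5 and LNPIFN-Y library 5. These 2 libraries were also the lowest of their groups in the granulosa list (-3.11 and -3.51, centred log2). The same held for the theca and luteal list (-4.05 and -4.38). Ovgp1 of the oviduct ranged from 2.01 to 14564 CPM. Total counts per library ran from 16496793 to 17218043. Some marker lists moved with the groups: the summed CPM of 16 smooth muscle genes was 298 to 2479 in ptLNPIFN-Y, 1167 to 2723 in LNPIFN-Y, 1935 to 7553 in Model and 2696 to 3282 in Control, and that of 20 oviduct epithelium genes was 33.3 to 4263, 44.7 to 4530, 36.8 to 10063 and 1253 to 16296 in the same order. All 16 smooth muscle genes and all 19 tested oviduct genes had log2 fold changes below 0 against Model in both particle groups, with medians of -1.25 and -2.09 in ptLNPIFN-Y and -0.998 and -1.88 in LNPIFN-Y, and none of these was past the threshold. The follicle lists had median log2 fold changes below 0 as well: all 15 tested oocyte genes (medians -0.72 in ptLNPIFN-Y and -0.36 in LNPIFN-Y) and 15 of 18 granulosa cell genes (-0.74 and -0.65) lay below 0 in each particle group, with 0 oocyte genes and 1 granulosa gene past the threshold in each. Of the 12 theca and luteal genes 12 lay below 0 in ptLNPIFN-Y and 10 in LNPIFN-Y, and of the 12 adipocyte genes 12 and 11 lay above 0, with none past the threshold. Of the 12 leukocyte genes 8 were past the threshold and higher in ptLNPIFN-Y and 9 in LNPIFN-Y, against 6.05% and 5.25% of all genes. The 7 tested striated muscle genes had medians of -1.18 in ptLNPIFN-Y and -0.94 in LNPIFN-Y, with none past the threshold. Medians nearer 0 were those of endothelium (0.19 and 0.07), stromal fibroblasts (-0.35 and 0.21) and neurons and glia (-0.28 and -0.18). Mesothelium and ovarian surface epithelium gave 0.26 and 0.40. The part of leukocyte, smooth muscle, theca and adipocyte content in the values of the 8 genes was not tested. With oviduct content and follicle content (granulosa and oocyte lists averaged) as covariates, the median log2 fold change of the 8 against Model was -1.03 in ptLNPIFN-Y and -1.12 in LNPIFN-Y, all 8 values stayed below 0 in both, and 1 gene (Fat3) and 0 genes were past the threshold.

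Within groups, 5 of the 8 genes varied with the mean of 1 or more marker lists. Deviations from the group mean, which do not use the differences between groups, were compared for the 8 genes and 13 marker lists over all 20 libraries, 104 pairs in all, with 100000 permutations within groups, two-sided and adjusted by Benjamini-Hochberg. By Pearson's r 18 pairs were past an adjusted p of 0.05, 14 positive and 4 negative, and 13 pairs were past it by Spearman's rho. The 13 include Tnnt2 with the oviduct list, which is not among the 18. All 18 kept their sign without the 2 libraries farthest from the median of the list. The 18 pairs belonged to Cntfr (6), Tnnt2 (4), Klk1 (3), Fat3 (3) and Fam171a2 (2), and none to Grem1, Il17d or Psd.

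**Figure D3:**
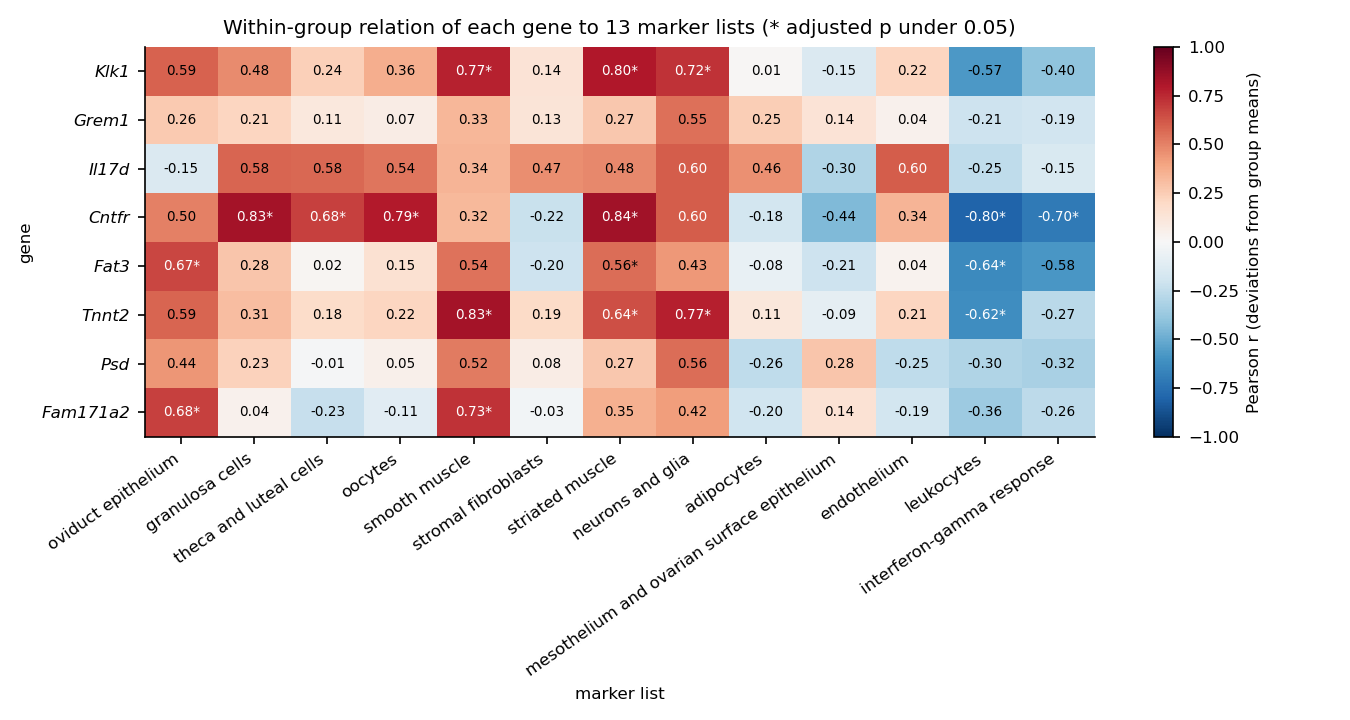
Pearson r between each of the 8 genes (rows) and the mean of each of 13 marker lists (columns), from deviations from group means over 20 libraries; stars mark an adjusted p under 0.05 in the permutation test. The smooth muscle column holds stars for Klk1, Fam171a2 and Tnnt2, the striated muscle column for Klk1, Fat3, Tnnt2 and Cntfr, the granulosa and oocyte columns for Cntfr, and the rows of Grem1, Il17d and Psd hold none.

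Tnnt2 followed the smooth muscle list, which holds such genes as Myh11, with r = 0.83 (permutation p = 0.00042, adjusted p = 0.00867) and rho = 0.77 (permutation p = 0.00047, adjusted p = 0.0122). Without ptLNPIFN-Y library 4 and Model library 2, r was 0.70. It followed the neuron and glia list with r = 0.77 (permutation p = 2.0e-05, adjusted p = 0.00208) and rho = 0.82 (permutation p = 8.0e-05, adjusted p = 0.00416), and r was 0.75 without the farthest libraries. Its r with the striated muscle list was 0.64 (permutation p = 0.00226, adjusted p = 0.0261) and its rho 0.71 (permutation p = 0.00190, adjusted p = 0.0282). With leukocytes r was -0.62 (permutation p = 0.00682, adjusted p = 0.0443), and rho was -0.62 and did not pass (permutation p = 0.0101, adjusted p = 0.0704). With the oviduct list rho was 0.72 (permutation p = 0.00125, adjusted p = 0.0217), while r was 0.59 and did not pass (permutation p = 0.0209, adjusted p = 0.0930). Tnnt2 is best known from the heart, but the cardiac genes Myh6 and Actc1 had at most 16 and 14 counts in any library. The neuronal gene Snap25 and the glial gene Sox10 had at most 9 and 14 counts. Other genes of the neuron and glia list were expressed, and 10 of its 14 genes were tested. Its summed CPM averaged 106 in ptLNPIFN-Y, 124 in LNPIFN-Y, 124 in Model and 102 in Control. Which of the 10 carry the r values of that list was not tested. The striated muscle list, of which 7 of 14 genes were tested, includes Tnni3 (3.24 to 76.4 CPM per library), another cardiac troponin gene. Its mean weighs the 7 tested genes alike on the log2 scale, and which of them carry its r values was not tested.

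Klk1 followed the striated muscle list with r = 0.80 (permutation p = 0.00028, adjusted p = 0.00867) and rho = 0.85 (permutation p = 8.0e-05, adjusted p = 0.00416), and r was 0.88 without LNPIFN-Y library 5 and ptLNPIFN-Y library 5. Its r with the smooth muscle list was 0.77 (permutation p = 0.00102, adjusted p = 0.0151), while rho was 0.63 and did not pass (permutation p = 0.0120, adjusted p = 0.0783); r was 0.66 without the farthest libraries. With neurons and glia r was 0.72 (permutation p = 0.00379, adjusted p = 0.0358), and rho was 0.56 and did not pass (permutation p = 0.0355, adjusted p = 0.137). The largest r of Fam171a2 was with smooth muscle, at 0.73 (permutation p = 0.00457, adjusted p = 0.0378), where rho was 0.63 and did not pass (permutation p = 0.0137, adjusted p = 0.0836) and r was 0.51 without the farthest libraries. Fam171a2 followed the oviduct list with r = 0.68 (permutation p = 0.00472, adjusted p = 0.0378) and rho = 0.72 (permutation p = 0.00252, adjusted p = 0.0328), and r was 0.63 without the farthest libraries. Fat3 did so with r = 0.67 (permutation p = 0.00574, adjusted p = 0.0398) and rho = 0.70 (permutation p = 0.00384, adjusted p = 0.0363), and r was 0.64 without them. Fat3 also passed with the striated muscle list, with r = 0.56 (permutation p = 0.00819, adjusted p = 0.0473) and rho = 0.65 (permutation p = 0.00483, adjusted p = 0.0386). With leukocytes its r was -0.64 (permutation p = 0.00766, adjusted p = 0.0469), and rho was -0.59 and did not pass (permutation p = 0.0145, adjusted p = 0.0838).

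Cntfr passed with the most lists, 6 of 13. Its largest r was 0.84, with the striated muscle list (permutation p = 0.00049, adjusted p = 0.00867; rho = 0.77, permutation p = 0.00072, adjusted p = 0.0150). Its r was 0.83 with the granulosa cell list (permutation p = 0.00045, adjusted p = 0.00867; rho = 0.75, permutation p = 0.00292, adjusted p = 0.0337) and 0.79 with the oocyte list (permutation p = 0.00116, adjusted p = 0.0151; rho = 0.71, permutation p = 0.00476, adjusted p = 0.0386). Without LNPIFN-Y library 5 and ptLNPIFN-Y library 5, the 2 libraries that lack Zp3, these were 0.70, 0.75 and 0.66. With the theca and luteal list r was 0.68 (permutation p = 0.00544, adjusted p = 0.0398), rho was 0.60 and did not pass (permutation p = 0.0183, adjusted p = 0.0907), and r was 0.44 without the farthest libraries. The sign was opposite for leukocytes, with r = -0.80 (permutation p = 0.00050, adjusted p = 0.00867) and rho = -0.82 (permutation p = 0.00033, adjusted p = 0.0114), and for the interferon-γ response list, with r = -0.70 (permutation p = 0.00310, adjusted p = 0.0322) and rho = -0.70 (permutation p = 0.00375, adjusted p = 0.0363). Without the farthest libraries r was -0.75 and -0.65. In ptLNPIFN-Y, LNPIFN-Y and Model the library lowest in Cntfr was also the lowest of its group in the granulosa list, and in Control it was not.

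**Figure D4:**
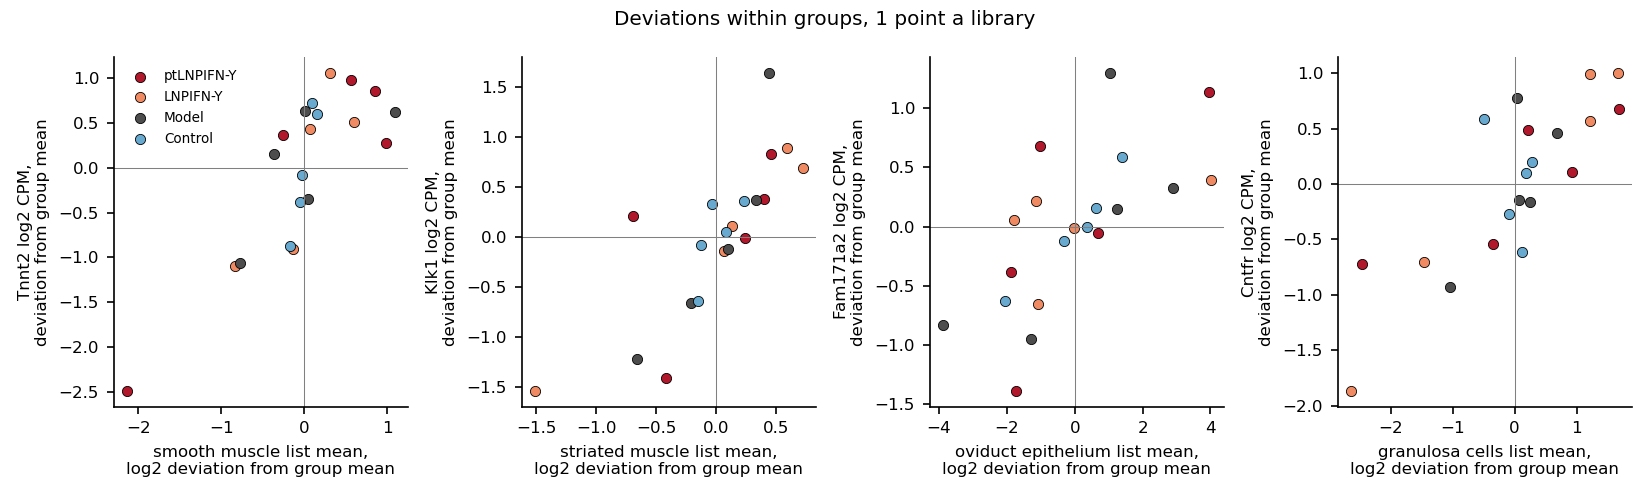
Deviation of a gene's log2 CPM from its group mean (vertical axis) against the deviation of a marker list mean (horizontal axis, log2), 1 point per library coloured by group. The panels show Tnnt2 with smooth muscle (r = 0.83), Klk1 with striated muscle (r = 0.80), Fam171a2 with oviduct epithelium (r = 0.68) and Cntfr with granulosa cells (r = 0.83).

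The within-group deviations of the 8 genes were also compared with each other, as a description. No grouping was computed, and pairs such as Psd with Fam171a2 and Klk1 with Cntfr (both r = 0.67) lay between the extremes. Fam171a2 and Fat3 (r = 0.84), Klk1 and Fat3 (r = 0.83), Klk1 and Tnnt2 (r = 0.79) and Klk1 and Fam171a2 (r = 0.78) moved together over the 20 libraries. Il17d stood apart from Fat3 (r = -0.02) and Fam171a2 (r = -0.13), and Grem1 was most like Psd (r = 0.68). All these values share libraries and depth. Single libraries repeated across genes: ptLNPIFN-Y library 4 was the lowest of its group for 6 of the 8 genes, LNPIFN-Y library 5 for 5, Model library 3 for 6 and Control library 5 for 5, while Model library 2 was the highest of its group for 4. In the same libraries, the smooth muscle list was lowest in ptLNPIFN-Y library 4 (-3.04 on the centred log2 scale), LNPIFN-Y library 5 (-1.10), Model library 3 (-0.18) and Control library 5 (0.40), and highest among Model in library 2 (1.68). The leukocyte list was highest of its group in ptLNPIFN-Y library 4 (1.62), LNPIFN-Y library 5 (1.63), Model library 3 (-0.002) and Control library 5 (-0.94). The oviduct list was lowest of its group in LNPIFN-Y library 5 (-3.37) and Control library 5 (0.44), but not in ptLNPIFN-Y library 4 or Model library 3. Which content, if any, goes with these extremes was not tested.

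Genes alike in pattern were sought where log2 CPM averaged 1 or more, leaving out the 8 and clone-type symbols (Gm or Rik). The pattern over the 20 libraries most like that of Klk1 was that of Sox7 (r = 0.94, group means removed). Most like Fam171a2 was that of Sgsm1 (r = 0.94), and most like Fat3 that of Rffl (r = 0.94). For Tnnt2 it was Npdc1 (r = 0.94) followed by Kcnmb1 (r = 0.87), a potassium channel subunit of smooth muscle. For Cntfr it was Zscan18 (r = 0.97) and Egflam (r = 0.96). Grem1 was nearest to Cyp17a1 (r = 0.89), the enzyme of theca cells that makes androgens, although its r with the theca and luteal list was 0.11. The closest genes of Psd (Rint1, r = 0.85) and Il17d (Bmp6, r = 0.81) were less alike. Among the 3 nearest genes of each of the 8, Septin5 (near Fam171a2) was past the threshold against Model in both particle groups, with log2 fold changes of -1.45 (adjusted p = 0.0392) in ptLNPIFN-Y and -1.61 (adjusted p = 0.0234) in LNPIFN-Y, and Rint1 in ptLNPIFN-Y only (-0.35, adjusted p = 0.0447).

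Lists of the families and pathways of the 8 genes hold 119 further genes in the table, of which 85 were tested. In ptLNPIFN-Y against Model 3 of the 85 were higher and 1 was lower at an adjusted p under 0.05 in edgeR's test, and in LNPIFN-Y 2 were higher and 1 was lower. For all genes tested, 6.05% were higher and 0.948% lower in ptLNPIFN-Y, and 5.25% and 0.566% in LNPIFN-Y. At an unadjusted p under 0.05 there were 16 of the 85 (18.8%) in ptLNPIFN-Y and 22 (25.9%) in LNPIFN-Y, in either direction, beside 22.4% and 18.7% of all genes. The median log2 fold change of the 85 was -0.11 in ptLNPIFN-Y and -0.16 in LNPIFN-Y.

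**Figure D5:**
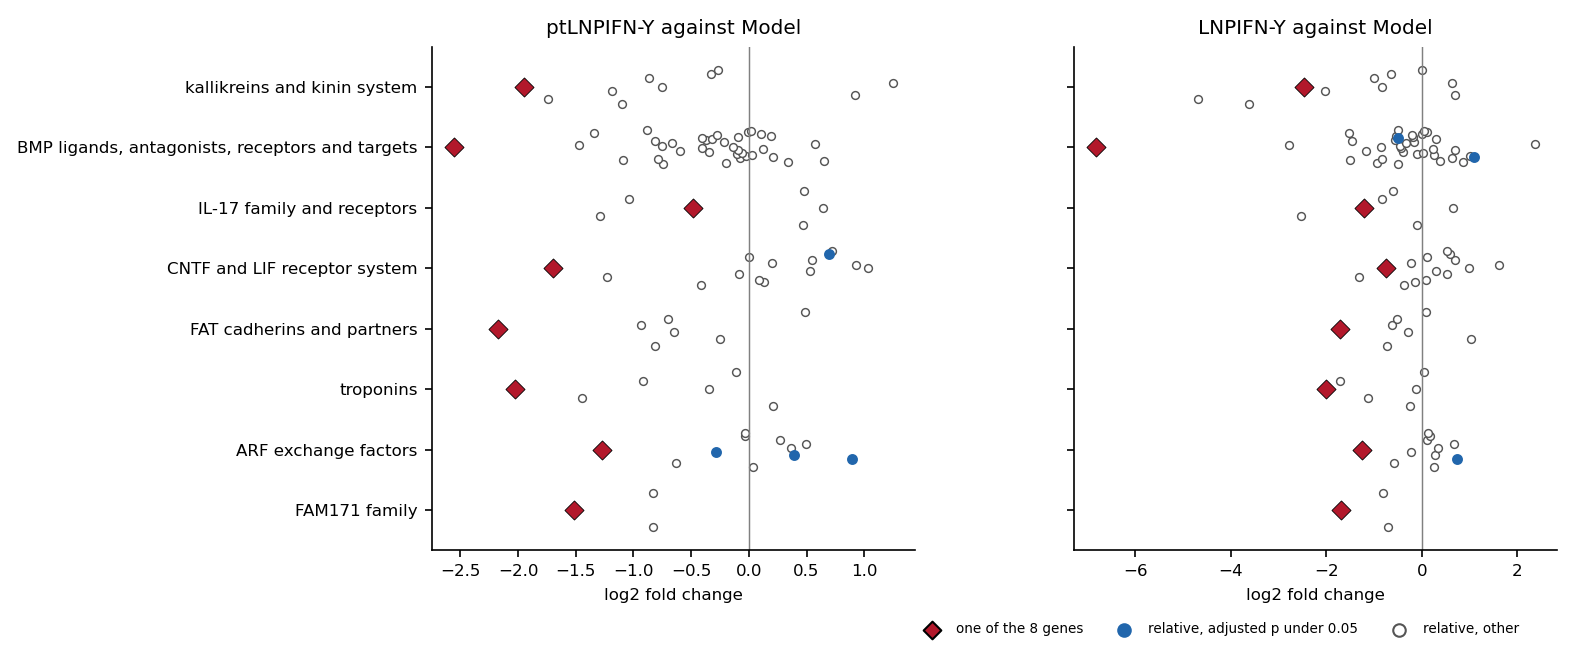
Log2 fold change (horizontal axis) of the 8 genes (diamonds) and of their tested relatives and partners (circles, filled where the adjusted p is under 0.05) in ptLNPIFN-Y and LNPIFN-Y against Model, by family (vertical axis). Filled circles are few, 4 in ptLNPIFN-Y and 3 in LNPIFN-Y, and 5 of these 7 lie above 0.

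Of the kallikrein and kinin list, none of the 9 tested relatives of Klk1 was past the threshold against Model, and 7 of the 9 in ptLNPIFN-Y and 6 in LNPIFN-Y had log2 fold changes below 0, beside 56.2% and 54.5% of all genes. Klk1b21, a neighbour of Klk1 in the mouse kallikrein cluster, averaged 2.65 CPM in ptLNPIFN-Y, 0.451 in LNPIFN-Y, 5.69 in Model and 5.35 in Control, with log2 fold changes against Model of -1.10 ± 1.52 and -3.62 ± 1.70 in the 2 particle groups (adjusted p = 0.673 and 0.260). The kinin receptors Bdkrb1 and Bdkrb2 had fold changes of -0.87 and -0.33 in ptLNPIFN-Y and of -1.002 and -0.64 in LNPIFN-Y on the log2 scale, none past the threshold. Kng2, which encodes a kininogen, was higher against Control in ptLNPIFN-Y (1.83, adjusted p = 0.0188).

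Of the 35 tested partners of Grem1 in BMP signalling, none was past the threshold in ptLNPIFN-Y and 2 were in LNPIFN-Y. Fstl3, a secreted binder of activin, was higher in LNPIFN-Y, with a mean of 16.7 CPM in LNPIFN-Y and 7.86 CPM in Model (log2 fold change 1.09 ± 0.29, adjusted p = 0.0312). Acvr2a, a type II receptor for activin and BMPs, was lower, with 31.9 CPM in LNPIFN-Y and 44.8 CPM in Model (-0.49 ± 0.14, adjusted p = 0.0492). The BMP target genes Id1, Id2, Id3, Smad6 and Smad7 were all short of the threshold in both groups.

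The other interleukin-17 genes tested were the receptors Il17ra, Il17rb, Il17rc, Il17rd and Il17re, and none passed against Model. Against Control, Il17rc was higher in ptLNPIFN-Y (0.93, adjusted p = 0.0130) and LNPIFN-Y (0.94, adjusted p = 0.0139), and Il17rd was lower (-1.48, adjusted p = 0.0133, and -1.26, adjusted p = 0.0341). Of the 13 tested partners of Cntfr, Stat3, the transcription factor below the receptor, was higher in ptLNPIFN-Y, with 318 CPM in ptLNPIFN-Y and 197 CPM in Model (0.70 ± 0.19, adjusted p = 0.0316). The co-receptor genes Lifr and Il6st gave 0.13 and 0.09 in ptLNPIFN-Y, with SEs of 0.13 and 0.19. The ligand gene Cntf gave -0.41 ± 0.33 in ptLNPIFN-Y (adjusted p = 0.454). With Control as the reference, 5 of the 13 partners were past the threshold and higher in ptLNPIFN-Y and 7 in LNPIFN-Y. In both groups 0 were lower. Of all 15723 genes tested, 1916 and 1699 were higher against Control. The median log2 fold change of the 13 against Control was 0.65 in ptLNPIFN-Y and 0.82 in LNPIFN-Y.

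Fat1, the closest abundant relative of Fat3, gave -0.81 ± 0.25 in ptLNPIFN-Y (adjusted p = 0.0552) and -0.73 ± 0.25 in LNPIFN-Y (adjusted p = 0.105) against Model, and was lower against Control (-0.90, adjusted p = 0.0196, and -0.81, adjusted p = 0.0368). None of the 6 tested genes of the FAT list passed against Model. None of the 5 tested troponin genes did either, and Tnni3 gave -0.11 ± 0.56 in ptLNPIFN-Y and 0.04 ± 0.56 in LNPIFN-Y. The ARF exchange factors included genes that went against Psd. Psd4 rose in both groups, with 29.3 CPM in ptLNPIFN-Y, 26.2 in LNPIFN-Y and 15.7 in Model (0.89 ± 0.14, adjusted p = 0.000437, and 0.74 ± 0.14, adjusted p = 0.00296). Cyth1 was higher (0.39, adjusted p = 0.0277) and Cyth2 lower (-0.28, adjusted p = 0.0470) in ptLNPIFN-Y, and Psd3 gave -0.63 and -0.58 without passing. Fam171a1 and Fam171b gave -0.83 and -0.83 in ptLNPIFN-Y and -0.71 and -0.80 in LNPIFN-Y against Model, short of the threshold, and Fam171a1 was lower against Control in both (-1.09, adjusted p = 0.0207, and -0.97, adjusted p = 0.0400).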

How the data were processed

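Polyadenylated RNA from 20 mouse ovary samples was analysed. The deposited table holds expected counts, which per the submitters' processing notes come from RSEM, with HISAT2, StringTie, DESeq2 and build GRCm38.p6 also named and no versions given. In it 9.85% of values carry decimals, 1 row was empty and not used, and 26 symbols that had become dates were restored by gene ID. After rounding, edgeR 4.0.16 (R 4.3.3) was applied to them: filterByExpr (minimum count 10), TMM, and 1 quasi-likelihood model over the 4 groups with 6 contrasts, adjusted by Benjamini and Hochberg over 15723 genes. The threshold was an adjusted p of 0.05. The SE is the log2 fold change divided by the root of F, log2 CPM uses a prior count of 2, and the common biological coefficient of variation was 0.439. The members, gene lists and tests were chosen with earlier results of these data known. Named genes are the 8, family genes past the threshold against Model, some of those past it against Control, and closest relatives. Further named genes come from the 3 most alike genes of each (mean log2 CPM of at least 1, no Gm or Rik clone symbol, highest r). Others, outside the choice, are the 3 genes next below Psd in LNPIFN-Y and next below Cntfr in ptLNPIFN-Y. Some results are not reported here. For each list the log2 CPM of its tested genes other than the 8 was averaged and centred over the libraries. The fit was tested on simulated data. Alternatives were DESeq2 1.42.0, other scalings, no filter, the 2 groups alone, sample weights (limma 3.58.1), the replicate number as a block, 2 tissue covariates, and libraries left out. A different pseudocount was not run. Same-numbered libraries of different groups did not deviate together (r from -0.70 to 0.76, median -0.16, over 30 pairs), so the numbers were not taken to pair samples. Python 3.11.15 with matplotlib 3.10.9 drew the figures.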

Additional observations from a re-analysis of the deposited data

Results flagged for a closer look

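In Control library 2 the centred mean of the oocyte list was -0.0685 on the log2 scale, below the other 4 Control libraries by 0.747 of the group's range. This was the 1 flag among 84 groups of values tested for a library apart from the rest, a check that chance alone trips in about 1 of 20 groups. Control library 2 was also the highest of its group for 5 of the 8 genes.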

How the results depend on the processing

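All 638 log2 fold changes of the 8 genes in the particle groups against Model or Control, over every alternative run, were below 0. The comparisons with Model chose the genes for that direction, and those with Control share the particle libraries. The shared sign is therefore no independent support. How many genes passed the threshold depended on the fit. The number of all genes called lower is given below in the order ptLNPIFN-Y against Model, LNPIFN-Y against Model, ptLNPIFN-Y against Control and LNPIFN-Y against Control. It was 149, 89, 847 and 515 as reported, 627, 492, 1712 and 1428 with DESeq2, 766, 580, 2646 and 2427 with sample quality weights, and 731, 219, 2241 and 1265 with library size alone. It was 44, 8, 1299 and 799 with only the 2 groups compared, 84, 24, 75 and 29 with the tissue covariates, and 97, 37, 488 and 147 without the 2 libraries that lack Zp3. Upper-quartile factors gave 226 for ptLNPIFN-Y against Model, and 1423 and 1029 for ptLNPIFN-Y and LNPIFN-Y against Control, and DESeq2 called 2 genes lower in Model against Control. The replicate block gave 79 and 33 for ptLNPIFN-Y and LNPIFN-Y against Model and 303 for LNPIFN-Y against Control, and left 1 gene past the threshold in each particle group against Model, Fat3 in ptLNPIFN-Y and Klk1 in LNPIFN-Y. Against Control it kept all 6 calls in ptLNPIFN-Y and 6 of 7 in LNPIFN-Y, where it lost Grem1. Leaving out 1 library gave 57 to 685, 29 to 486, 303 to 1417 and 189 to 1411. The median of the 8 genes left its spread only with the tissue covariates, at -1.03 for ptLNPIFN-Y against Model and -0.91 for ptLNPIFN-Y against Control; 0 and 1 of the 8 genes then passed against Control in ptLNPIFN-Y and LNPIFN-Y. Without centring on group means 60 of the 104 relations to marker lists passed in place of 18, with RLE factors 15 and without the 2 libraries that lack Zp3 16. Library size alone shifted the median of all genes by -0.13 in ptLNPIFN-Y and -0.10 in LNPIFN-Y against Model and raised the lower share of all calls to 44.8% from 13.5% and to 22.6% from 9.74%. With DESeq2 the lower share was 32.9% and 32.4%. Against Control the lower share was 30.7% and 23.3% as reported, 60.0% and 48.0% with library size alone, 45.8% and 40.9% with upper-quartile factors, and 41.5% and 39.4% with DESeq2. The causes were not tested. Counts in single figures limit Grem1, and intervals from counts cover counting error only.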
